A study of Mus musculus with 24 samples.

Results

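PPARGC1A (PGC-1 alpha) and the genes it works with set how many mitochondria a cell builds, and 10 of them were followed here in a mouse insulinoma line. The 10 are the coactivator genes Ppargc1a and Ppargc1b, the transcription factor genes Esrra, Nrf1 and Gabpa, the mitochondrial transcription genes Tfam, Tfb2m and Polrmt, and the genes of the paired mitochondrial proteins Chchd2 and Chchd10. They were taken by name, out of 46517 gene entries, and all 10 matched an entry by Ensembl identifier. They were also chosen by measured values, the read counts of Ppargc1a and Chchd10 with and without doxycycline (DOX), which had been seen to be lower with it. Their levels with and without DOX are therefore given as a description, with no test.

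PGC-1 coactivators do not bind DNA themselves. They are recruited by nuclear receptors such as ERR alpha (Esrra) and by the factors NRF1 (Nrf1) and GABP (Gabpa), which bind promoters of nuclear genes for mitochondrial proteins. Among these are the genes for TFAM, which packs and transcribes mitochondrial DNA, for TFB2M, which opens the mitochondrial promoter, and for POLRMT, the mitochondrial RNA polymerase. CHCHD2 and CHCHD10 are small twin CX9C proteins of the intermembrane space. In beta cells mitochondrial ATP production couples glucose to insulin release, and Ppargc1a transcription is known to answer to cAMP through CREB.

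PolyA RNA was sequenced from βTC3 cells, a beta cell tumour line from transgenic mice with SV40 T antigen under the insulin promoter. Every culture carried a DOX-inducible plasmid: PB-31 alone (control line), PB-31 with the miR-23b cluster, which holds miR-23b, miR-27b and miR-24 (miR-23b line), or PB-31 with miR-137 (miR-137 line). Each line was grown without DOX for 7 d (no DOX) or with 2 µg/ml DOX for 7 d (7 d DOX), and the miRNA lines also with DOX for 7 d and then without it for 7 d (withdrawn), giving 8 groups of 3 libraries. The labels give no withdrawn control culture, no culture without DOX matched in length to withdrawal, nor whether a line is 1 clone. They also give no date, plate or run, so DOX and withdrawal cannot be told apart from anything else that the no DOX cultures shared.

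Libraries held 15759849 to 24144737 counts in genes. Of 9 beta cell markers, 8 passed the filter on low counts, and the list summed to 11760 to 12393 CPM in miR-23b cultures with DOX, 17178 to 17510 CPM in the withdrawn miR-23b line and 14303 to 15890 CPM in all other libraries. CPM is the usual scaling of read counts by library size, here TMM-adjusted, and the scale of all levels below unless TPM is named. The 5 alpha cell markers summed to 121.9 to 159.2 CPM in the no DOX libraries and to 237.1 to 373.9 CPM in all others, carried by Ttr and Gcg. Endothelial markers summed to at most 1.28 CPM, and 1 of 5 acinar and 1 of 5 leukocyte markers was at 0 throughout. In the control line with DOX 20898 to 21066 genes had a count, against at most 20336 in any other library. The part of these shifts in the results below was not tested.

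The miRNA sequences and their seed matches are shown first, since they give the match between each induced miRNA and the members' transcripts. The mature miRNAs are from RefSeq (GRCm38.p6), 5′ to 3′, with the seed (bases 2 to 8) in capitals; no 2 of them share a seed.
miR-137-3p: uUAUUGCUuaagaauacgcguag
miR-27b-3p: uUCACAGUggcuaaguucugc
miR-24-3p: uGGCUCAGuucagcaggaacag
miR-23b-3p, the further product of the cluster, is named only.

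The longest annotated 3′ UTR of each member (GENCODE M21, GRCm38) was searched on the transcript strand for the reverse complement of each seed. A match of these 7 bases counts as a 7mer, and one followed by A as an 8mer. Ppargc1a, whose longest 3′ UTR has 3930 bases, held 2 8mers for miR-137-3p, and Esrra, with 774 bases, also held 2. Nrf1 held 1 7mer and 1 8mer for miR-27b-3p and Tfam 1 8mer. The other 6 members had no match to these 3 seeds. The sites are printed with 23 bases each, with the 7 matching bases in capitals.
Ppargc1a miR-137-3p site at chr5:51455606-51455628: agtagatagaaAGCAATAaataa
Ppargc1a miR-137-3p site at chr5:51455399-51455421: agactattaagAGCAATAaatta
Esrra miR-137-3p site at chr19:6911255-6911277: cccccccttgaAGCAATAactcc
Esrra miR-137-3p site at chr19:6911146-6911168: atgccctgcagAGCAATAacact
Nrf1 miR-27b-3p site at chr6:30152899-30152921: cagtcattgtcACTGTGAgcttc
Nrf1 miR-27b-3p site at chr6:30153269-30153291: tttttttttaaACTGTGAagctg
Tfam miR-27b-3p site at chr10:71228285-71228307: gggctagatagACTGTGAagtga

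Of 12979 genes with a count test and a 3′ UTR, 10.59% held a 7mer for miR-137-3p, 17.88% for miR-27b-3p and 19.65% for miR-24-3p. An 8mer for miR-137-3p was present in 4.56% and 2 or more in 0.2% (26 genes), which include Ppargc1a and Esrra. A match describes these letters and is no measured site of action. It is set below beside the values of each gene.

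Ppargc1a encodes PGC-1 alpha (ENSMUSG00000029167, GRCm38 chr5:51454250-51567726, minus strand). Without DOX its level was 10.7, 11.8 and 12.4 CPM in the 3 control libraries, 11.5, 13.6 and 13.1 in the miR-23b line, and 9.87, 11.1 and 9.42 in the miR-137 line. With 7 d DOX it was 4.86, 5.04 and 4.93 in the control line, 8.77, 9.41 and 9.25 in the miR-23b line, and 2.52, 2.79 and 2.57 in the miR-137 line. Without DOX the control libraries overlapped those of each miRNA line, while every miR-23b library lay above every miR-137 library. With DOX the 3 lines formed separate groups, with the miR-23b line highest and the miR-137 line lowest. The log2 fold changes with DOX were -1.23 (SE 0.10) in the control line, -0.49 (SE 0.09) in the miR-23b line and -1.95 (SE 0.12) in the miR-137 line, with n = 3 libraries per group. In bulk RNA, fewer expressing cells and less RNA per cell cannot be told apart.

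Chchd10 (ENSMUSG00000049422, chr10:75933130-75937747, plus strand) was the other gene noticed for its lower level with DOX. Its control libraries stood at 47.9, 55.8 and 52.0 CPM without DOX and at 17.98, 15.8 and 14.8 with it. The miR-23b line went from 46.3, 48.6 and 43.4 to 9.50, 12.8 and 12.4, and the miR-137 line from 39.1, 45.3 and 33.7 to 11.2, 12.2 and 10.4. Every library with DOX lay below every library without it, in all 3 lines. The log2 fold changes were -1.68 (SE 0.10), -2.00 (SE 0.11) and -1.81 (SE 0.11) in the control, miR-23b and miR-137 lines. Of its exonic bases 9.84% overlap Mmp11 on the opposite strand, a gene with 2551 counts over the 24 libraries.

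**Figure D1:**
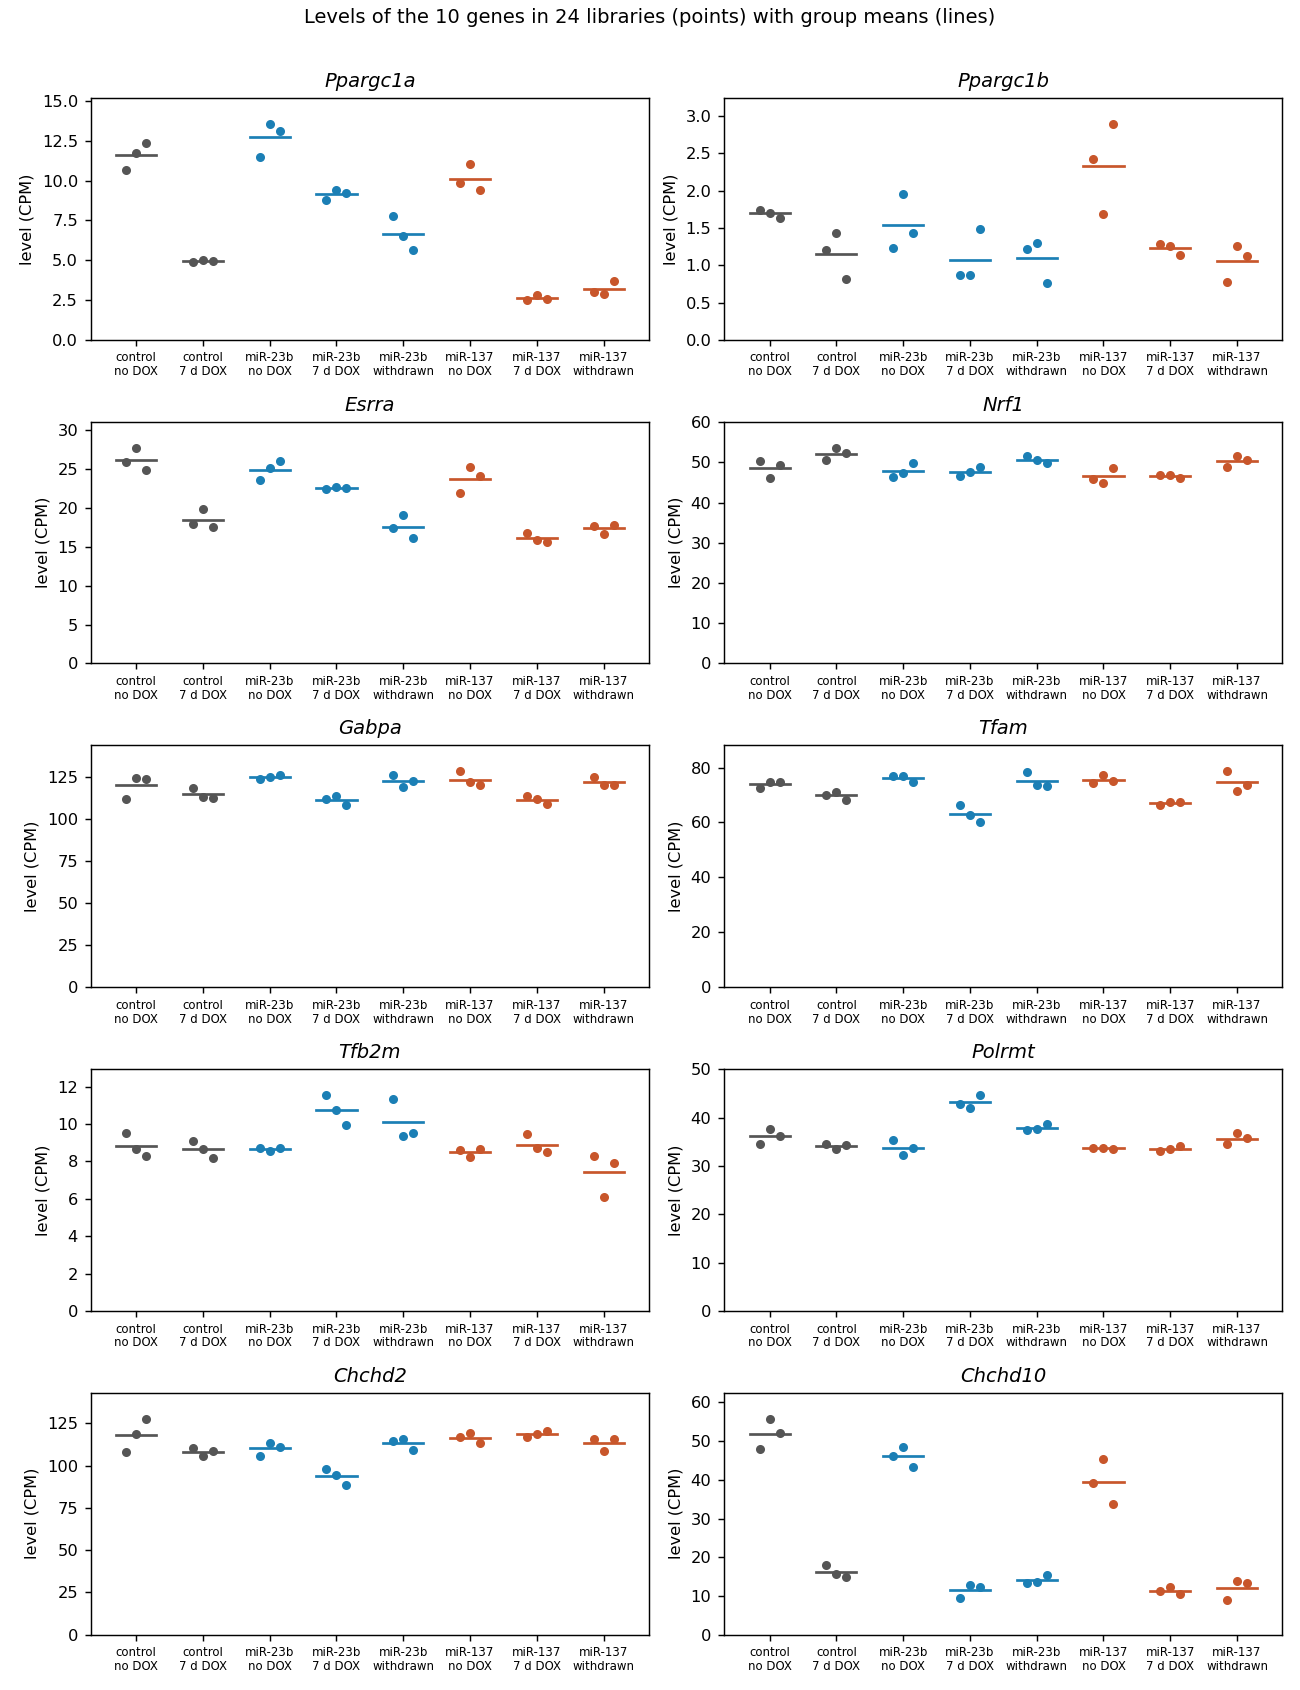
Levels (CPM) of the 10 genes in the 8 groups; points are the 3 libraries of a group, lines their means, grey the control line, blue the miR-23b line and orange the miR-137 line. Ppargc1a and Chchd10 span the widest range, with group means of 2.63 to 12.7 and 11.3 to 51.9 CPM, while Nrf1 stays between 46.5 and 52.2 CPM.

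Esrra, which encodes the nuclear receptor ERR alpha and is itself a PGC-1 target, stood at 25.9, 27.7 and 24.8 CPM in control cells without DOX and at 17.9, 19.8 and 17.6 with it. In the miR-137 line it went from 21.8, 25.3 and 24.1 to 16.7, 15.9 and 15.6, and in the miR-23b line from 23.6, 25.0 and 26.0 to 22.5, 22.7 and 22.6. On the CPM scale the groups did not overlap in any line, and the step in the miR-23b line was the smallest of the 3. The log2 fold changes were -0.50 (SE 0.06), -0.57 (SE 0.07) and -0.14 (SE 0.06) in the control, miR-137 and miR-23b lines. In TPM the miR-23b step was absent, with means of 19.67 and 19.65 and overlapping ranges of 18.25 to 20.66 and 17.96 to 20.59. Ppargc1b, the paralogue of Ppargc1a, had low counts, 12 to 52 per library. Its group means went from 1.70 to 1.15 CPM in the control line, from 1.54 to 1.07 in the miR-23b line and from 2.34 to 1.23 in the miR-137 line with DOX, with SE of 0.23 to 0.26 on the log2 scale.

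The mitochondrial transcription genes separated in the miR-23b line. Polrmt went from 35.4, 32.4 and 33.7 CPM to 42.7, 42.0 and 44.7 with DOX in that line, and Tfb2m from 8.73, 8.54 and 8.70 to 11.6, 10.8 and 9.93. Tfam went the other way, from 76.9, 76.8 and 74.8 CPM to 66.3, 62.7 and 60.1. None of these 3 pairs of groups overlapped on the CPM scale. In TPM the Tfam groups of that line did overlap, at 83.83 to 97.01 without DOX and 73.14 to 84.43 with it. The summed beta cell markers of that line were also lower with DOX than in any other group and highest after withdrawal, as given above, and their part in its results was not tested. In the control line the means of Polrmt were 36.2 and 34.2 CPM, those of Tfb2m 8.83 and 8.65, and those of Tfam 74.1 and 69.9. In the miR-137 line Polrmt had 33.7 and 33.6 CPM and Tfb2m 8.49 and 8.89, while Tfam had 75.5 ± 1.49 and 67.1 ± 0.580 CPM (SD, n = 3).

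Among the promoter factors, Gabpa, the DNA-binding subunit of GABP, had means of 120 and 115 CPM without and with DOX in the control line. It had 125 ± 1.27 and 111 ± 2.73 CPM in the miR-23b line and 124 ± 4.38 and 112 ± 2.36 in the miR-137 line (SD, n = 3), where the groups did not overlap. In TPM the miR-23b groups of Gabpa did overlap, with means of 57.0 and 55.9. Nrf1 moved least, with group means of 46.5 to 52.2 CPM over all 8 groups. Chchd2, which also encodes a nuclear regulator of stress-responsive genes, had 110 ± 3.94 and 93.8 ± 4.84 CPM without and with DOX in the miR-23b line, and 116 ± 3.10 and 119 ± 1.74 CPM in the miR-137 line. In the control line Chchd2 was also lower with DOX, at 118 ± 9.74 and 108 ± 2.22 CPM, with overlapping groups. Reads that align to more than 1 place were not counted, and Chchd2 has 1 named pseudogene.

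**Figure D2:**
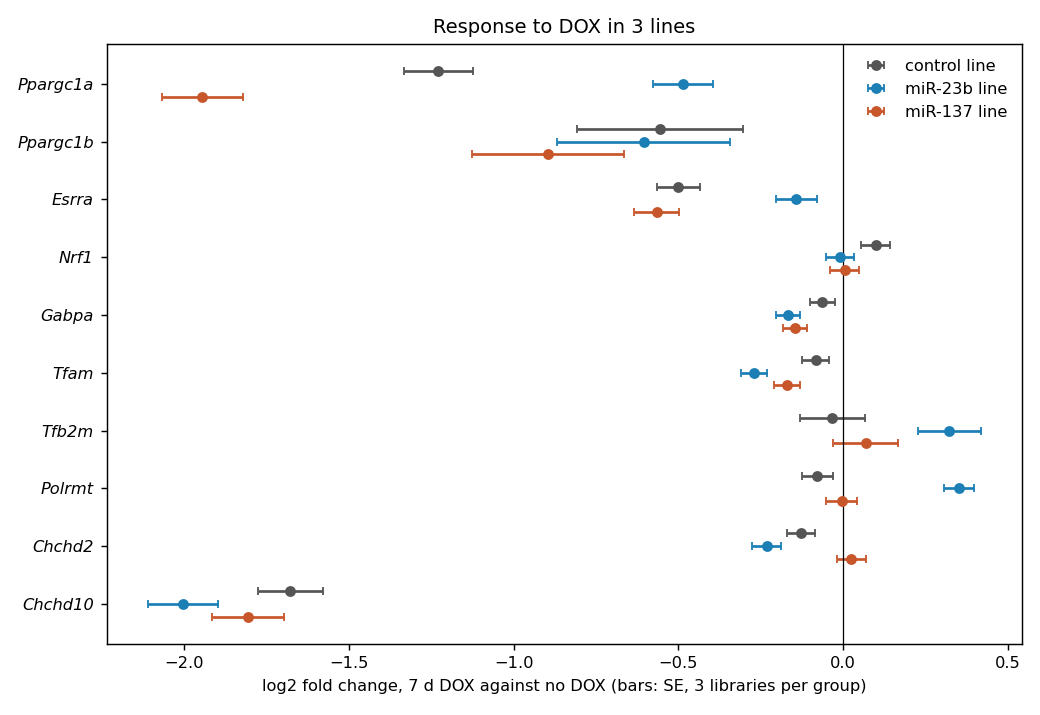
Log2 fold change of each gene with 7 d DOX against no DOX in the control (grey), miR-23b (blue) and miR-137 (orange) lines; bars are SE with 3 libraries per group. Ppargc1a spreads from -0.49 to -1.95 between lines, Chchd10 stays between -1.68 and -2.00, and Polrmt and Tfb2m are above 0 by more than their SE in the miR-23b line.

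For orientation, a gene is counted as called where edgeR's quasi-likelihood test gave a Benjamini-Hochberg adjusted p below 0.05 over 14866 genes. In the control line 0 members were called higher and 4 lower with DOX, where 18.5% and 19.3% of all genes were. All 4 were also called by DESeq2, which called 0 higher. In the miR-23b line 2 members were called higher and 6 lower, against 28.8% and 28.6% of all genes, and of the genes called 50.2% were higher on the count scale and 67% on the TPM scale. In the miR-137 line 0 were called higher and 6 lower, against 21% and 21.8%. These contrasts helped to choose the members, so nothing is read from the counts.

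The differences between the lines' responses to DOX were not used to choose the members and were tested as interaction terms. They use the same libraries as the responses by which Ppargc1a and Chchd10 were chosen, and those of Ppargc1a were in part known beforehand. For both genes the adjusted p values of these differences are therefore a description and no independent test. The Ppargc1a response of the miR-137 line was stronger than that of the control line (log2 difference -0.72, SE 0.17, quasi-likelihood adjusted p = 0.0039). Library by library, the log2 change from the no DOX mean was -1.24, -1.18 and -1.22 in the control line and -1.96, -1.82 and -1.93 in the miR-137 line. The miR-23b response was weaker than that of the control line (0.74, SE 0.14, adjusted p = 5.2e-05), with libraries at -0.53, -0.43 and -0.45. This difference was 0.36 and 0.51 with an adjusted p of 0.058 and 0.070 on the log2(TPM + 1) and log2(TPM + 0.1) scales. Between the miRNA lines the difference was -1.46 (SE 0.16, adjusted p = 1.4e-09).

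Esrra followed the same order only in part. Its response in the miR-23b line was weaker than in the control line (0.36, SE 0.09, adjusted p = 0.0018) and than in the miR-137 line (difference -0.42, SE 0.09, adjusted p = 0.00037). Against the control line, the miR-137 response of Esrra differed by -0.07 (SE 0.09, adjusted p = 0.73). The size of this difference ranged from -0.26 to -0.05 over 6 alternatives, of which 0 called it. The 3′ UTRs of Esrra and Ppargc1a each hold 2 8mers for miR-137-3p, as printed above. Of the 592 genes with 1 or more such 8mers, 122 (20.61%) were called lower and 15 (2.53%) higher in the miR-137 response than in the control response, where 5.27% and 6.5% of the 12979 genes were. Their median log2 difference was -0.091, against -0.004 for the 12979 genes. Whether the seed matches of Ppargc1a or Esrra have a part in their levels was not tested.

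Polrmt showed the clearest line difference among the mitochondrial transcription genes. Its response in the miR-23b line exceeded that in the control line by 0.43 (log2, SE 0.07, adjusted p = 1.7e-06) and that in the miR-137 line by a similar step (difference -0.36, SE 0.07, adjusted p = 4.4e-05). Tfb2m differed from control in the same direction (0.36, SE 0.14, adjusted p = 0.038), and Tfam in the opposite one (-0.19, SE 0.06, adjusted p = 0.0088). The Tfb2m call was lost in DESeq2 (adjusted p = 0.094) and without any 1 of 6 libraries (no DOX control replicate 1, DOX control replicates 2 and 3, no DOX miR-23b replicate 2, DOX miR-23b replicates 1 and 2), with adjusted p up to 0.11. On the TPM scale the Tfam difference was -0.025 with an adjusted p of 0.83. The Chchd2 response was higher in the miR-137 line than in the miR-23b line (0.26, SE 0.06, adjusted p = 0.0011), a difference of 0.13 with an adjusted p of 0.081 on the log2(TPM + 1) scale. Between the miR-23b and control lines the Chchd2 response differed by -0.10 (SE 0.06, quasi-likelihood adjusted p = 0.19). That difference ranged from -0.11 to 0.04 over the alternatives.

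For Chchd10 the line differences did not pass the test: -0.33 (SE 0.15, adjusted p = 0.085) for the miR-23b line and -0.13 (SE 0.15, adjusted p = 0.66) for the miR-137 line, each against control. The first passed without miR-23b DOX replicate 2 (-0.42, adjusted p = 0.047), with no filter on low counts (-0.31, adjusted p = 0.0092) and with only the groups compared in the fit (-0.32, adjusted p = 0.031). In all, 4 members were called higher and 1 lower in the miR-23b response than in the control response, where 18.1% and 19.4% of all genes were. Of all genes called there 48.3% were higher, and 69.9% on the TPM scale. For miR-137 against control 0 were called higher and 1 lower, against 5.9% and 4.78%, with 2 members at an unadjusted p below 0.05 and 0 higher under DESeq2. Without no DOX control replicate 1, Chchd2 was also called there (0.22, adjusted p = 0.010; 0.15, SE 0.06, adjusted p = 0.10 with it). For miR-137 against miR-23b 1 was called higher and 3 lower, against 18.4% and 16.8%; of all genes called there 52.3% were higher, and 26.1% on the TPM scale.

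After withdrawal of DOX the members took different courses. Ppargc1a stayed below every no DOX library in both lines: the withdrawn libraries stood at 7.81, 6.51 and 5.66 CPM in the miR-23b line and at 2.98, 2.87 and 3.71 in the miR-137 line. In the miR-23b line each lay below all 3 libraries with DOX, and in the miR-137 line each lay above them. Against no DOX the log2 fold changes were -0.93 (SE 0.10) and -1.67 (SE 0.11). Chchd10 also stayed low, at 13.5, 13.5 and 15.3 CPM in the miR-23b line and 9.03, 14.0 and 13.2 in the miR-137 line, or -1.71 (SE 0.11 and 0.10) against no DOX in both lines. Its withdrawn libraries lay above all 3 with DOX in the miR-23b line and overlapped those with DOX in the miR-137 line. Values of these 2 genes against no DOX or DOX libraries are given without a test, since those libraries were used to choose them.

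Esrra was low after withdrawal in both lines. In the miR-23b line it stood at 17.4, 19.1 and 16.2 CPM, below the libraries with DOX (-0.36, SE 0.07, adjusted p = 2.4e-05) and below no DOX (-0.50, SE 0.07, adjusted p = 1.3e-07). In the miR-137 line it stood at 17.7, 16.6 and 17.7 CPM, which was below no DOX (-0.46, SE 0.06, adjusted p = 2.6e-07) and differed from the DOX level by 0.11 (SE 0.07, adjusted p = 0.25). Ppargc1b, at 1.05 ± 0.248 CPM (SD, n = 3) in the withdrawn miR-137 line, was also below its no DOX level (-1.12, SE 0.23, adjusted p = 0.00012), a gene with 18 to 28 counts per library in that group.

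Tfam and Gabpa moved back towards their no DOX levels in both lines, and Chchd2 did so in the miR-23b line. Tfam rose on withdrawal from 63.0 ± 3.07 to 75.0 ± 2.85 CPM in the miR-23b line (log2 fold change 0.25, SE 0.04, adjusted p = 3e-06) and from 67.1 ± 0.580 to 74.6 ± 3.69 CPM in the miR-137 line (0.15, SE 0.04, adjusted p = 0.0029; SD, n = 3). Against no DOX the withdrawn levels of Tfam differed by -0.02 in both lines (SE 0.04, adjusted p = 0.71 and 0.75). Gabpa rose from 111 to 123 CPM (0.14, SE 0.04, adjusted p = 0.0018) and from 112 to 122 CPM (0.13, SE 0.04, adjusted p = 0.0072). On the log2(TPM + 1) scale the Tfam step of the miR-137 line was 0.14 with an adjusted p of 0.069. On that scale the Gabpa steps were 0.012 and 0.057, with adjusted p of 0.80 and 0.25, and the second was also lost without miR-137 DOX replicate 3 (adjusted p = 0.051). Chchd2 rose in the miR-23b line from 93.8 to 113 CPM (0.27, SE 0.04, adjusted p = 3.2e-06). In the miR-137 line it went from 119 to 113 CPM (-0.06, SE 0.04, adjusted p = 0.28), with 116 CPM without DOX.

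Polrmt fell on withdrawal in the miR-23b line, from 43.2 ± 1.40 to 37.9 ± 0.627 CPM (-0.19, SE 0.05, adjusted p = 0.00082), and stayed above its no DOX level of 33.8 ± 1.53 (0.17, SE 0.05, adjusted p = 0.0049; SD, n = 3). The second difference was 0.070 with an adjusted p of 0.22 on the log2(TPM + 1) scale and 0.13 with an adjusted p of 0.054 without no DOX miR-23b replicate 2. Tfb2m stood at 11.3, 9.36 and 9.54 CPM in the withdrawn miR-23b line and differed from its DOX level by -0.09 (SE 0.09, adjusted p = 0.43). This depended on the scale. In TPM the means of Tfb2m in that line were 25.3 ± 2.78 without DOX, 31.2 ± 1.72 with DOX and 23.1 ± 1.71 after withdrawal. Of 6 alternatives 2 called the step on withdrawal, which reached -0.43. Nrf1 was called higher in the withdrawn miR-137 line, at 50.4 ± 1.34 CPM against 46.6 ± 0.368 with DOX (0.11, SE 0.04, adjusted p = 0.041) and 46.5 ± 1.89 without (0.12, SE 0.04, adjusted p = 0.024). The first Nrf1 call was lost without DOX replicate 1, 2 or 3 or withdrawn replicate 2 or 3, and the second without no DOX replicate 1 or 2 or withdrawn replicate 2 or 3, with adjusted p up to 0.17. Both were lost in DESeq2 (0.10 and 0.064).

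**Figure D3:**
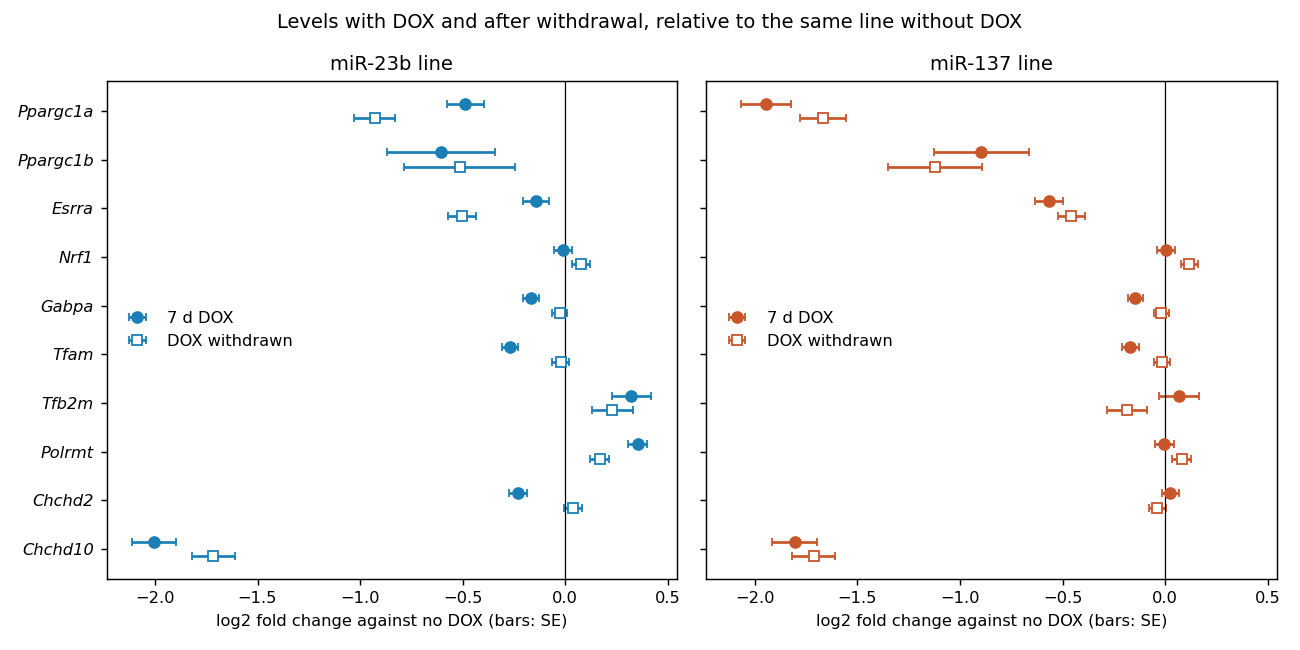
Log2 fold change against no DOX of the same line with 7 d DOX (filled circles) and after withdrawal (open squares), for the miR-23b line (left) and the miR-137 line (right); bars are SE with 3 libraries per group. Tfam and Gabpa lie near 0 after withdrawal in both lines, whereas Chchd10 stays at -1.71 and Ppargc1a at -0.93 and -1.67.

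Counted over the 10 members, 3 were called higher and 3 lower on withdrawal in the miR-23b line, where 26.4% of all genes were called higher and 25.8% lower than with DOX. Of all genes called there 50.6% were higher, and 27.8% on the TPM scale. In the miR-137 line 3 were called higher and 1 (Tfb2m) lower, against 14.7% and 14.8%. Relative to no DOX, 1 member was called higher and 3 lower in the withdrawn miR-23b line, against 19.2% and 20.6%. In the withdrawn miR-137 line 1 was called higher and 4 lower, against 21.6% and 21.7%; of all genes called there 49.9% were higher, and 39.5% on the TPM scale. The counts lower include Ppargc1a in the first of these contrasts and both Ppargc1a and Chchd10 in those against no DOX, and nothing is read from them for these genes. The Tfb2m step in the miR-137 line (-0.25, SE 0.10, adjusted p = 0.046) was 0.013 on both TPM scales, and its adjusted p ranged from 0.051 to 0.30 without DOX replicates 1, 2 or 3 or withdrawn replicate 2.

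The withdrawn lines were compared with each other through 6 libraries outside the comparison with and without DOX in which Ppargc1a and Chchd10 were noticed. The members were still chosen with earlier results of these data known, so the values are not fully independent of that choice. Ppargc1a was lower in the withdrawn miR-137 line than in the withdrawn miR-23b line, at 3.19 ± 0.456 against 6.66 ± 1.08 CPM (SD, n = 3; log2 difference -1.07, SE 0.13, quasi-likelihood adjusted p = 7.4e-08). All 3 libraries of the first lay below all 3 of the second. This order was also present without DOX, where the group means were 10.1 CPM in the miR-137 line and 12.7 CPM in the miR-23b line, without overlap. Tfb2m was also lower, at 7.44 ± 1.17 against 10.1 ± 1.10 CPM (-0.44, SE 0.10, adjusted p = 0.0015), a difference of -0.041 with an adjusted p of 0.81 on the log2(TPM + 1) scale. Chchd10 differed by -0.22 (SE 0.13, adjusted p = 0.28) and Esrra by -0.02 (SE 0.07, adjusted p = 0.92). Of the members 0 were called higher and 2 lower, where 6.53% and 6.2% of all genes were; 2 members had an unadjusted p below 0.05, and DESeq2 called 0 higher.

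Without DOX the lines were close. Against the control line, 0 members were called in the miR-23b line in either direction, where 3.59% of all genes were called higher and 2.78% lower; of all genes called there 56.3% were higher, and 33.7% on the TPM scale. In edgeR 2 members had an unadjusted p below 0.05, and DESeq2 called 0. Without no DOX control replicate 1, Chchd2 was called lower (-0.17, adjusted p = 0.020). In the miR-137 line 0 were called higher and 1 lower, against 1.89% and 0.814%. That member was Chchd10, at 39.4 ± 5.79 against 51.9 ± 3.98 CPM (SD, n = 3; log2 difference -0.39, SE 0.09). These libraries helped to choose Chchd10, so its value is a description, with no test. The groups did not overlap, DESeq2 did not call it, and it was not called without no DOX control replicate 2 (-0.34) or no DOX miR-137 replicate 3 (-0.30).

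The other members lie at these places of GRCm38: Esrra (ENSMUSG00000024955) at chr19:6910977-6921813, Nrf1 (ENSMUSG00000058440) at chr6:30047988-30153458 and Gabpa (ENSMUSG00000008976) at chr16:84834925-84863779. Tfam (ENSMUSG00000003923) lies at chr10:71225464-71238280, Tfb2m (ENSMUSG00000026492) at chr1:179528055-179546267, Polrmt (ENSMUSG00000020329) at chr10:79736123-79746581 and Chchd2 (ENSMUSG00000070493) at chr5:129881156-129887470. Gabpa shares 6.98% of its exonic bases with Atp5j and Esrra 1.66% with Trmt112, both on the opposite strand. The sources used here do not say whether strand was used in counting.

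Levels between genes can be compared only per length. On the deposited TPM scale the mean over 24 libraries ran from Chchd2 at 179 TPM through Nrf1 (109), Tfam (85.4), Gabpa (55.9), Polrmt (52.2), Tfb2m (24.8), Esrra (16.8) and Chchd10 (14.1) to Ppargc1a (3.21) and Ppargc1b (0.359). CPM divided by the exonic length in kb gave the same highest gene (Chchd2, 49.1) and the same lowest pair (Ppargc1a, 1.16, and Ppargc1b, 0.350). In between the orders differed: Nrf1 was second by TPM and rank 7 by CPM per kb, and Chchd10 rank 8 and 4. The sources used here do not give the length term behind the TPM values.

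Over the 24 libraries the level of Esrra went along with that of Ppargc1a (Pearson r of log2 CPM 0.90, n = 24 libraries). That of Gabpa went with Tfam (0.84), and that of Polrmt ran against Chchd2 (-0.69). These values describe libraries that share lines, conditions and scaling and carry no test. Among 10784 genes compared, the patterns nearest to Ppargc1a were those of the chemokine gene Cxcl16 (r 0.94), the lysosomal protease gene Ctsb (0.93), the myosin gene Myo18a (0.93), the formin gene Diaph2 (0.93) and Ahcyl2 (0.93). For Chchd10 they were Trnp1 (0.98), the lysosomal hexosaminidase gene Hexa (0.98), the sphingosine phosphate lyase gene Sgpl1 (0.97), the vitamin B12 carrier gene Tcn2 (0.97) and the tetraspanin gene Cd63 (0.97).

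**Figure D4:**
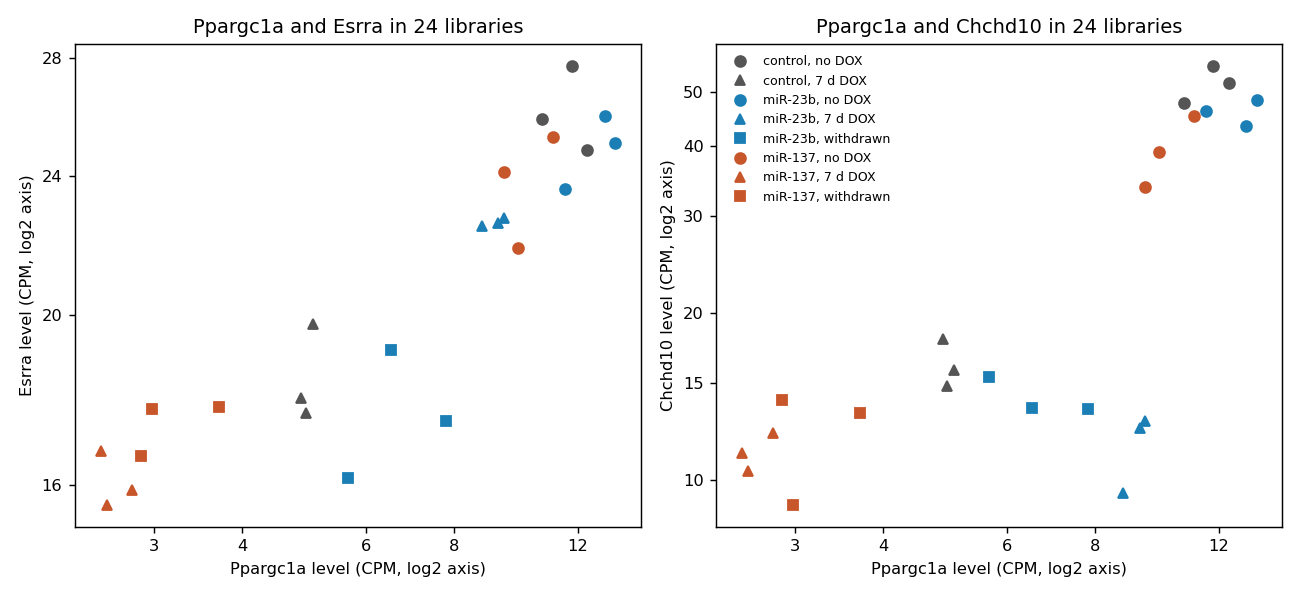
Level of Esrra (left) and Chchd10 (right) against that of Ppargc1a in the same library (CPM, log2 axes); colours mark the line and symbols the condition, 24 libraries in each panel. Esrra runs along with Ppargc1a (r 0.90), whereas the miR-23b libraries with DOX have Chchd10 at 9.50 to 12.8 CPM at a Ppargc1a level of 8.77 to 9.41 CPM.

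Promoter windows of RefSeq (GRCm38.p6, 250 bases before to 50 after the start, 300 in all) were found for 8 of the members. They were searched on both strands for the NRF1 core GCATGCGC, the GABP core CCGGAAG, the ERR element TNAAGGTCA and the CRE TGACGTCA, which 2.71%, 8.86%, 1.28% and 1.79% of 32851 windows hold. The windows of 4 members are printed with the matches in capitals. On the count scale Tfb2m and Polrmt were higher with DOX in the miR-23b line, and Gabpa and Tfam were lower there and rose on withdrawal. These likenesses are partial, since on withdrawal only Polrmt of the first 2 was called lower, and the Gabpa steps were small in TPM. Whether the motifs have a part in the levels was not tested.
Tfb2m promoter, chr1:179546227-179546526, minus strand: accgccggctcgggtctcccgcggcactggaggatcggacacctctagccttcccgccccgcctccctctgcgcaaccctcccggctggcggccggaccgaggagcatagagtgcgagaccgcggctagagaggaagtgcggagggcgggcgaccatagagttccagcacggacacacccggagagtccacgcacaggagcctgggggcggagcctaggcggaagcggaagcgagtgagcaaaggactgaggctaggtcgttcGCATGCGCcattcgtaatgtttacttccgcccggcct
Polrmt promoter, chr10:79746532-79746831, minus strand: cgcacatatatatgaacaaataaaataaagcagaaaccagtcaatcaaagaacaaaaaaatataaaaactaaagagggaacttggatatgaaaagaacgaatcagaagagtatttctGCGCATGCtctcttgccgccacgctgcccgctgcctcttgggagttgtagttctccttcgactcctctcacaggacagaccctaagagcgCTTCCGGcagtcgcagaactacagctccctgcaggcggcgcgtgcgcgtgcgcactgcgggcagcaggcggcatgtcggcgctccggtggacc
Gabpa promoter, chr16:84834874-84835173, plus strand: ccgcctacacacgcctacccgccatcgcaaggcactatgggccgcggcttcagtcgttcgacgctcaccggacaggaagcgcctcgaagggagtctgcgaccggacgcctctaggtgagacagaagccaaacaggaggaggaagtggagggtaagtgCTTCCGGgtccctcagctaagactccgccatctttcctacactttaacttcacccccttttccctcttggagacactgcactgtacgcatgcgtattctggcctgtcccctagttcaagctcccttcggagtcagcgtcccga
Tfam promoter, chr10:71237995-71238294, minus strand: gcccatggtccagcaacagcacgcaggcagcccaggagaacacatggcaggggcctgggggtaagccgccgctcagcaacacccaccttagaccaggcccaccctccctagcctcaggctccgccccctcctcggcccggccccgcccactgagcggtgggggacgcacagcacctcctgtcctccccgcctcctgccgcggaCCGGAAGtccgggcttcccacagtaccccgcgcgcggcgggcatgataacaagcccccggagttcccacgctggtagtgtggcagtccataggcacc

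The NRF1 core began 13 bases after the start in Tfb2m and 133 bases before it in Polrmt (there on the other strand). It was also found in Esrra, 34 bases before the start. The GABP core began 93 bases before the start in Gabpa (other strand), 47 bases before it in Tfam and 43 bases before it in Polrmt (other strand). The windows of Ppargc1a, Nrf1 and Chchd10 held none of the 4 motifs in these letters.

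Genes around the members were taken as 9 lists. CREB and CRTC target genes, whose promoters answer to cAMP, had 19 tested members. With DOX 2 were called higher and 13 lower in the control line (median log2 fold change -0.79), 6 and 11 in the miR-23b line (-0.42) and 5 and 7 in the miR-137 line (-0.04). Of all genes, 18.5% were called higher and 19.3% lower in the control line, 28.8% and 28.6% in the miR-23b line, and 21% and 21.8% in the miR-137 line. After withdrawal 4 were higher and 12 lower than without DOX in the miR-23b line, where 19.2% and 20.6% of all genes were. In the miR-137 line the counts were 3 and 11, against 21.6% and 21.7%. Between responses, 10 of the 19 were called higher and 0 lower in the miR-137 response than in the control response, with a median log2 difference of 0.38 (-0.0044 over all genes), where 5.9% and 4.78% of all genes were called. The list includes the immediate early genes Fos (1.65, SE 0.11), Fosb (1.49, SE 0.15) and Junb (1.204, SE 0.11) and the nuclear receptor gene Nr4a1 (1.39, SE 0.11). Ppargc1a itself, given above, differed by -0.72. By DESeq2 and on the log2(TPM + 1) scale the counts were also 10 and 0, as they were without any 1 library. In the miR-23b response 5 of the 19 were called higher than in the control response and 3 lower, where 18.1% and 19.4% of all genes were. Among the genes called were Nr4a2 (0.61, SE 0.09), Sik1 (0.60, SE 0.12) and Egr1 (-0.80, SE 0.10).

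Partners and corepressors of PGC-1 held 23 tested genes. The counts below stand against 18.1% of all genes called higher and 19.4% lower in the miR-23b response, and 5.9% and 4.78% in the miR-137 response. In the miR-23b response 4 were called higher than in the control response and 8 lower, the corepressor gene Bhlhe40 by -1.82 (SE 0.14), Prox1, a corepressor of ERR alpha, by 0.32 (SE 0.08) and the lipin gene Lpin1 by -0.27 (SE 0.06). On the log2(TPM + 1) scale these counts were 7 and 2. In the miR-137 response 1 was higher (Rxra, the RXR alpha gene, 0.27, SE 0.05) and 3 lower, led by Esrrg, the ERR gamma gene (-0.38, SE 0.06, adjusted p = 8.4e-05). Esrrg stood at 77.4 and 54.1 CPM without and with DOX in the control line, at 82.4 and 65.6 in the miR-23b line and at 77.9 and 41.9 in the miR-137 line. Of 32 upstream inputs to Ppargc1a, 7 were called higher and 7 lower in the miR-23b response than in control, led by Flcn, the folliculin gene (-0.65, SE 0.07), and on the log2(TPM + 1) scale 13 and 3. In the miR-137 response 2 were higher and 4 lower, led by the MEF2 factor gene Mef2d (0.28, SE 0.06) and the AMPK subunit gene Prkab2 (-0.26, SE 0.08), and on the log2(TPM + 1) scale 0 and 0.

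The lists of mitochondrial genes depended on the scale. Of 24 genes that copy or transcribe mitochondrial DNA, 1 was called higher (the ligase gene Lig3, 0.33, SE 0.06) and 6 lower in the miR-23b response, among them the mitochondrial topoisomerase gene Top1mt (-0.68, SE 0.11) and Tfb1m, which methylates mitochondrial rRNA (-0.55, SE 0.12). Of 29 genes in the twin CX9C and MICOS list, which also holds 6 genes of small TIM chaperones with another cysteine motif, 2 were higher and 8 lower, among them Apool (-0.55, SE 0.14) and the small TIM gene Timm8b (-0.39, SE 0.10), and of 24 mitochondrial RNA processing genes 1 was higher and 3 lower. On the log2(TPM + 1) scale the counts higher and lower were 3 and 3 for the first list, 3 and 4 for the second and 3 and 0 for the third. In the miR-137 response edgeR called 0 genes of these 3 lists in either direction, with 2, 3 and 9 genes (in the same order) at an unadjusted p below 0.05, and DESeq2 also called 0. Whether the share called differs between the lines was not tested.

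On withdrawal in the miR-23b line, where 26.4% of all genes were called higher and 25.8% lower, 14 of the 29 genes of the twin CX9C and MICOS list rose and 0 fell, led by Coa6, a copper delivery factor of cytochrome oxidase (0.62, SE 0.09), and Timm8b (0.62, SE 0.07), with 15 at an unadjusted p below 0.05. DESeq2 gave 13 and 0, and the log2(TPM + 1) scale 9 and 1. Of the 6 small TIM genes in that list 4 rose. Chchd10, which encodes a twin CX9C protein, went from 11.6 ± 1.79 to 14.1 ± 1.07 CPM (SD, n = 3). That step of 0.29 (SE 0.13) is given without a test, and Chchd2 rose by 0.27 (SE 0.04), as given above. Of 25 genes of mitochondrial dynamics and turnover 9 rose and 6 fell, with the mitophagy receptor gene Bnip3 at 1.76 (SE 0.11) and Ghitm at -0.67 (SE 0.04). Of 23 reported PGC-1 targets 8 rose and 6 fell, among the latter Fndc5 (-1.06, SE 0.07) and the creatine kinase gene Ckmt1 (-0.64, SE 0.06). On the log2(TPM + 1) scale 5 and 10 of the dynamics genes, and 3 and 11 of the targets, were called higher and lower.

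Of 23 reported PGC-1 target genes, 4 were called higher and 5 lower in the miR-23b response than in control, where 18.1% and 19.4% of all genes were. Among them were Fndc5 (0.77, SE 0.11) and the uncoupling protein gene Ucp2 (-0.34, SE 0.05), and on the log2(TPM + 1) scale the counts were 7 and 3. In the miR-137 response 0 were called higher and 2 lower, where 5.9% and 4.78% of all genes were. The 2 were Fndc5 (-0.50, SE 0.12) and the adenine nucleotide carrier gene Slc25a5 (-0.33, SE 0.05), with 8 targets at an unadjusted p below 0.05 and 0 higher and 3 lower by DESeq2. Of 13 mitochondrially encoded mRNAs 7 passed the filter on low counts. In the miR-23b response 3 of the 7 were called higher than in control and 0 lower, mt-Co1 by 0.26 (SE 0.05) and mt-Nd1 by 0.24 (SE 0.07), and in the miR-137 response 0 were called in either direction, with 3 at an unadjusted p below 0.05 and 0 by DESeq2. DESeq2 called 1 higher in the miR-23b response, and with no filter on low counts 5 were called higher in each response.

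**Figure D5:**
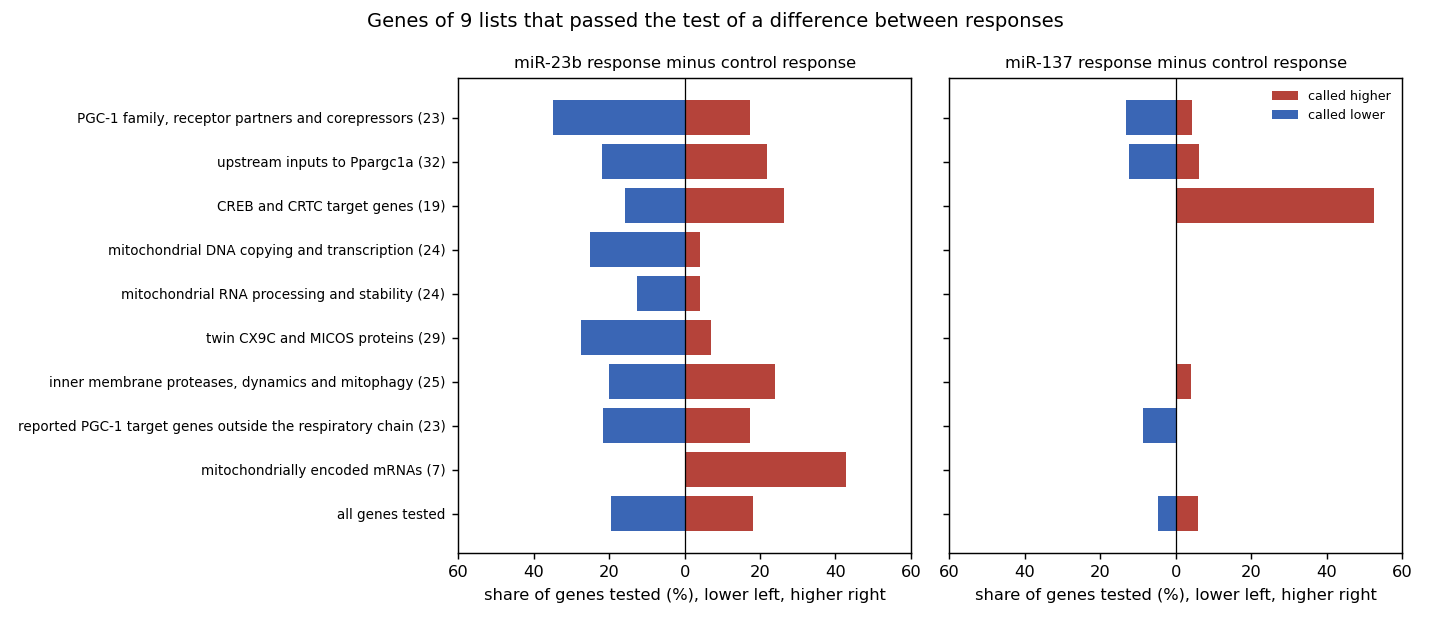
Share of the tested genes of 9 lists (number tested in brackets) called higher (right) or lower (left) in the miR-23b response (left panel) and the miR-137 response (right panel) than in the control response, with all 14866 genes in the last row. In the right panel the CREB and CRTC targets have 10 of 19 genes called higher, and 4 lists of mitochondrial genes have 0 called.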

How the data were processed

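Per the labels, polyA RNA of 24 cultures was sequenced from libraries of a stranded kit. The authors deposited raw read counts per gene and a TPM table, read as TPM because its columns sum to between 999999.3 and 1000001.3. Per the submitters' processing notes, featureCounts, RSEM 1.2.19, HTSeq 0.6.1, STAR 2.4.0g and cutadapt 1.3 were used with GRCm38 and mm10. For the role of each and for the strand setting, nothing is given in the sources used here. By the summary rows of the deposited counts, 9.62% to 12.1% of reads lay outside genes and 25.4% to 27.7% aligned to several places; both were left out.

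Counts were fitted in R 4.3.3 with edgeR 4.0.16 (filterByExpr, 14866 genes kept, TMM, 8 group means, quasi-likelihood F test) over 13 comparisons, with Benjamini-Hochberg adjusted p below 0.05 within each as the threshold. Each SE was obtained as the size of the log2 fold change over the root of its F value. The common coefficient of biological variation was 3%, which covers the spread between 3 libraries per group and may be technical, since the labels say only that cultures were plated in triplicate. Libraries of a group differed by more than sampling noise (chi-square per gene 1.49 to 3.89). Alternatives were DESeq2 1.42.0, no filter, a replicate block, fits of only the groups compared, limma 3.58.1 on log2(TPM + 1) and log2(TPM + 0.1), and leaving out each library. The fit was tested on simulated data.

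The members and all lists were chosen with earlier results of these data known. List genes were named, up to 4 per comparison, by size of log2 fold change among genes called with at least 5 CPM in the highest group, and the 5 nearest patterns by Pearson r. Lists come from general knowledge. Sequences are from RefSeq (GRCm38.p6) and GENCODE M21.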

Additional observations from a re-analysis of the deposited data

Results flagged for a closer look

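The lines' responses to DOX were compared in 3 contrasts by a test of the difference itself (edgeR quasi-likelihood, adjusted p below 0.05, n = 3 libraries per group). Counted over all 3, 6 of the 10 genes were called, including Ppargc1a, which was chosen from the same libraries. The share of all genes called in any of the 3 was not computed, so nothing is read from this count. Of all genes, 18.1% were called higher and 19.4% lower for the miR-23b line against control, 5.9% and 4.78% for the miR-137 line against control, and 18.4% and 16.8% between the miRNA lines. Ppargc1a differed in all 3 contrasts of responses: 0.74 for the miR-23b line against control, -0.72 for the miR-137 line against control and -1.46 for the miR-137 line against the miR-23b line, on the log2 scale. Esrra differed by 0.36 between the miR-23b and control lines and by -0.42 between the miRNA lines. Polrmt differed by 0.43 and -0.36 in the same contrasts. Tfam (-0.19) and Tfb2m (0.36) differed between the miR-23b and control lines, and Chchd2 (0.26) between the miRNA lines. The 3 libraries of the control line with DOX, which showed more genes with a count than any other library, enter each contrast with the control line.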

How the results depend on the processing

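Of 50 results for single genes that passed the threshold, 33 passed in every alternative and with every library left out, and of 80 that did not, 63 never did. The number of the 10 genes called moved by more than 1.5 times in these cases. For withdrawn against DOX in the miR-137 line it was 4, and 2 with DESeq2, with no filter and with only the groups compared, 1 on both TPM scales, and 1 to 4 with a library left out. The Tfb2m value there (-0.25) changed sign on log2(TPM + 1) and log2(TPM + 0.1), to 0.013 and 0.013. For the miR-137 against the control response it was 1, and 2 with no filter and 1 to 2 with a library left out. For the miR-23b against the control response it was 5, and 3 on both TPM scales. Between the withdrawn lines it was 2, and 1 on both TPM scales. Without DOX it was 1 for miR-137 against control, 0 with DESeq2 and 0 to 1 with a library left out; for miR-23b against control it was 0, with 1 when only the groups compared were fitted, 2 on both TPM scales and 0 to 1 with a library left out. Apart from the construction of each alternative, the cause was not tested. Low counts limit Ppargc1b most.

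The replicate numbers were not used to pair the samples in the main fit. Same-numbered libraries of different groups had a mean correlation of deviations of 0.031 over 84 pairs, with 3 pairs above 0.1. For libraries with other numbers it was -0.015 over 168 pairs, with 0 above 0.1. Whether the numbers mark a weak shared effect was not tested. With the number as a replicate block, Tfb2m passed for withdrawn against no DOX in the miR-23b line (adjusted p = 0.049 in edgeR), and no count of the 10 genes moved by more than 1.5 times.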
